A study of Mus musculus with 9 samples.

Results

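A set of 10 genes of the oligodendrocyte lineage was followed in punches of the paraventricular nucleus (PVN) of the mouse hypothalamus: Pdgfra, Cspg4, Ptprz1, Vcan, Gpr17, Olig1, Olig2, Sox10, Neu4 and Bcas1. They were chosen by name, as genes of oligodendrocyte precursors and their descendants, and all 10 were found by symbol among the 27179 genes of the count table. Expression was measured by bulk RNA sequencing in 9 male wild type C57BL/6 mice (C57BL/6J in the methods), in 3 groups of 3 mice named Control, HFD and HFD+Mino. The Control diet was chow with 16% of calories from fat, and HFD mice ate a high fat diet with 60% of calories from fat, both for 12 weeks. HFD+Mino mice ate the same high fat diet and received minocycline, a tetracycline antibiotic that also dampens inflammation, in drinking water at 40 mg/kg/day during the last 6 weeks. The diets began at 5 weeks of age, and the age on the labels is 35 days for every mouse. The HFD group received no minocycline, and no group combined the control diet with minocycline. The comparisons address which genes differed with the diet and whether they differed again when minocycline was added.

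Oligodendrocyte precursors are dividing glial cells spread through the adult brain. They carry the PDGF receptor alpha, which binds the growth factor PDGF-A, and the proteoglycan NG2, encoded by Cspg4. The transcription factors Olig1, Olig2 and Sox10 set and hold the lineage, and the receptor Gpr17 and the protein Bcas1 mark a passing stage between the precursor and the myelinating oligodendrocyte.

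The 10 genes did not all differ in the same direction between HFD and Control, while 9 of the 10 had negative log2 fold changes in HFD+Mino against HFD. In HFD mice Cspg4 rose and Olig2 fell against Control, and Gpr17 and Ptprz1 reached their highest levels of the series. Olig1, the neighbour of Olig2, was not called, with overlap between its HFD and Control mice. With minocycline, Cspg4, Gpr17 and Ptprz1 fell from their HFD levels, and 0 of the 10 genes differed from Control by the test used. In a bulk sample fewer cells of a type and less RNA of a gene per cell cannot be told apart.

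Levels are given as CPM, the counts scaled to a common library size with TMM factors. A gene was called when the quasi-likelihood test of edgeR gave a false discovery rate (FDR, adjusted by Benjamini-Hochberg over all 17344 genes tested) below 0.01 and the fold change was at least 1.5. Total counts ran from 17728590 to 42326213 per sample, and all 10 genes passed the filter on low counts. Some libraries stood apart. Control replicate 1 had a summed level of 35499 CPM over 20 genes of mature oligodendrocytes and myelin, against 2891 to 7935 CPM in the other 8 samples. In the same sample the PVN peptide genes Avp (vasopressin) and Oxt (oxytocin) were near 0, at 0.149 and 0.770 CPM. Trh (thyrotropin-releasing hormone) had 221 counts there, against 9073 to 22930 in the other samples. Crh (corticotropin-releasing hormone) was not low, with 829 counts there and 287 to 4129 in the other samples. HFD+Mino replicates 1 and 2 had 38037 and 32501 CPM over 7 PVN genes, where the other 6 samples, leaving out Control replicate 1, had 1186 to 3861 CPM. Most of these 2 high sums came from Avp (819388 and 597090 counts) and Oxt (260203 and 234084 counts). The 7 genes were mixed, with 5 positive and 2 negative log2 fold changes in HFD+Mino against HFD. Results that moved most without 1 of these samples are also given without it.

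**Figure D1:**
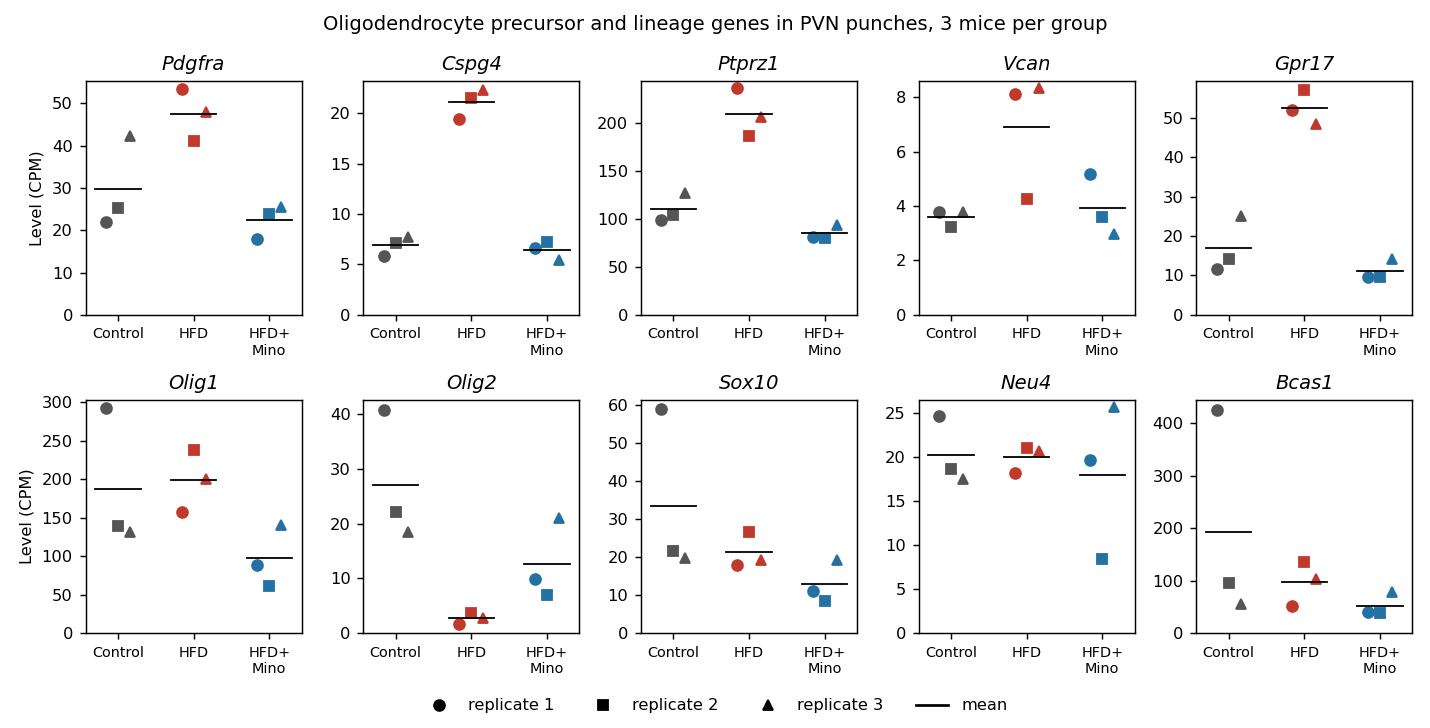
Level of each of the 10 genes in CPM (y axes start at 0) in the 9 PVN samples, 3 mice per group. Symbols are single mice by replicate number and the bar is the group mean. All 3 HFD samples lie above the 6 others for Cspg4, Ptprz1 and Gpr17 and below them for Olig2, and Control replicate 1 is far above the other samples for Bcas1 and Sox10.

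The surface molecules of the precursor were examined first. Pdgfra (Entrez 18595, GRCm38 chr5:75151322-75198206, plus strand) measured 22.0, 25.3 and 42.2 CPM in Control, 53.5, 41.1 and 48.0 CPM in HFD, and 17.9, 23.9 and 25.6 CPM in HFD+Mino replicates 1 to 3. One Control mouse lay above the lowest HFD mouse, so these groups overlapped, while all HFD mice lay above all HFD+Mino mice. The log2 fold change of HFD against Control was 0.67 (SE 0.28, edgeR FDR 0.202), and that of HFD+Mino against HFD was -1.08 (SE 0.28, edgeR FDR 0.0196). Neither passed the threshold. Its exons overlap with Gm42802 (456 nt) and Gm42803 (166 nt) on the opposite strand and with the microRNA gene Mir7025 (30 nt) on its own.

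Cspg4 (Entrez 121021, chr9:56865104-56899870, plus strand), whose protein NG2 is a standard marker of these cells, measured 5.81, 7.08 and 7.77 CPM in Control, 19.5, 21.5 and 22.3 CPM in HFD, and 6.67, 7.24 and 5.41 CPM in HFD+Mino. The HFD mice were separate from all others, and the Control and HFD+Mino mice overlapped. Cspg4 rose 3.07-fold in HFD against Control (log2 fold change 1.62, SE 0.25, edgeR FDR 0.00449) and was 3.28-fold lower in HFD+Mino than in HFD (log2 fold change -1.71, SE 0.25, edgeR FDR 0.00354).

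NG2 is also made by pericytes, the contractile cells of capillary walls. The summed level of 7 other pericyte genes was 105 to 189 CPM in Control, 55.3 to 82.7 CPM in HFD and 103 to 246 CPM in HFD+Mino, so it was lowest in the group in which Cspg4 was highest. None of these 7 genes was called in HFD against Control, and 1 of 7, Higd1b, was called higher in HFD+Mino against HFD. The list was mixed, with 2 positive and 5 negative log2 fold changes in HFD against Control, and 4 and 3 in HFD+Mino against HFD. Vtn had the most counts of the 7 in every sample (598 to 5796). Notch3 had 152, 117 and 242 counts in Control, 243, 328 and 503 in HFD, and 171, 96 and 165 in HFD+Mino. Pdgfrb, a pericyte gene kept in another list here, also ran opposite to the sum, with 9.83 to 19.2 CPM in Control, 17.5 to 19.7 CPM in HFD and 4.75 to 7.24 CPM in HFD+Mino. Rgs5, a defining pericyte gene, was detected in all samples, at 2.82 to 6.21 CPM in Control, 1.56 to 2.72 CPM in HFD and 4.59 to 8.24 CPM in HFD+Mino.

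Ptprz1 (Entrez 19283, chr6:22875315-23052916, plus strand) encodes a receptor tyrosine phosphatase of precursors and astrocytes. It measured 99.1, 104 and 127 CPM in Control, 236, 186 and 206 CPM in HFD, and 81.6, 80.5 and 93.7 CPM in HFD+Mino. The 3 groups did not overlap with each other. HFD was 1.90-fold above Control (log2 fold change 0.93, SE 0.20, edgeR FDR 0.0220), which did not pass the threshold, and Ptprz1 was 2.46-fold lower in HFD+Mino than in HFD (log2 fold change -1.30, SE 0.20, edgeR FDR 0.00420), which did. The summed level of 10 astrocyte genes was 5094 to 7672 CPM in Control, 5368 to 6287 CPM in HFD and 5042 to 6062 CPM in HFD+Mino, with overlap between the groups, and 0 of the 10 was called in these comparisons. Aldoc had the most counts of the 10 in every sample (43276 to 179838). In HFD+Mino against HFD 5 of the 10 were positive and 5 negative, and 5 had an unadjusted p under 0.05 (edgeR), against 41.3% of all tested genes.

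Vcan (Entrez 13003, chr13:89655309-89743027, minus strand) encodes versican, a proteoglycan of the matrix around precursors. It was the lowest of the 10 genes per length of transcript, with 3.22 to 3.77 CPM in Control, 8.13, 4.26 and 8.34 CPM in HFD, and 5.17, 3.60 and 2.98 CPM in HFD+Mino. The HFD mice lay above the Control mice and overlapped with the HFD+Mino mice. The log2 fold changes were 0.94 (SE 0.36, edgeR FDR 0.172) in HFD against Control and -0.82 (SE 0.36, edgeR FDR 0.114) in HFD+Mino against HFD, and neither was called.

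Gpr17 (Entrez 574402, chr18:31942999-31949890, minus strand), a receptor found on cells leaving the precursor state, measured 11.7, 14.1 and 25.0 CPM in Control, 52.1, 57.0 and 48.5 CPM in HFD, and 9.55, 9.50 and 14.1 CPM in HFD+Mino. The lowest HFD mouse was well above the highest mouse of the other groups. The difference between HFD and Control was 3.10-fold (log2 fold change 1.63, SE 0.31) and just missed the threshold (edgeR FDR 0.0122). Gpr17 was 4.74-fold lower in HFD+Mino than in HFD (log2 fold change -2.25, SE 0.32, edgeR FDR 0.00264). Its exons share 188 nt with exons of Lims2 on the opposite strand, and it is not stated whether reads were counted by strand, so reads of that stretch cannot be told apart. Lims2 measured 19.0 to 38.5 CPM in Control, 12.7 to 17.4 CPM in HFD and 21.9 to 42.3 CPM in HFD+Mino, and was thus lowest where Gpr17 was highest, with no call in these comparisons.

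The transcription factors were examined next. Olig2 (Entrez 50913, chr16:91225550-91228677, plus strand) measured 40.7, 22.1 and 18.5 CPM in Control, 1.66, 3.68 and 2.86 CPM in HFD, and 9.85, 7.05 and 20.9 CPM in HFD+Mino. These levels rest on 1638, 783 and 629 counts in Control, 33, 127 and 115 counts in HFD, and 288, 190 and 767 counts in HFD+Mino. Every HFD mouse lay below every other mouse. Olig2 was 9.82-fold lower in HFD than in Control (log2 fold change -3.30, SE 0.49, edgeR FDR 0.00363). In HFD+Mino it was 4.58-fold above HFD (log2 fold change 2.20, SE 0.48), which did not pass the threshold (edgeR FDR 0.0121).

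Olig1 (Entrez 50914, chr16:91269769-91271939, plus strand) lies downstream of Olig2 on the same chromosome and encodes a related factor. It measured 292, 139 and 132 CPM in Control, 158, 238 and 199.7 CPM in HFD, and 88.9, 61.9 and 141 CPM in HFD+Mino. The HFD and Control mice overlapped, with a log2 fold change of 0.08 (SE 0.37, edgeR FDR 0.923). Control replicate 1 lay above all HFD mice, and Control replicates 2 and 3 lay below them. With 1 sample left out, this log2 fold change ranged from -0.11 to 0.55. All HFD mice lay above all HFD+Mino mice, with a log2 fold change of HFD+Mino against HFD of -1.03 (SE 0.37, edgeR FDR 0.0583). Olig1 shares 157 nt of exon with a long noncoding RNA gene, Gm15966, on the opposite strand.

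Since Olig1 and Olig2 are both expressed along the lineage, their ratio within a sample was compared. The table held 7.18, 6.31 and 7.13 Olig1 counts per Olig2 count in Control, 95.5, 64.7 and 69.8 in HFD, and 9.02, 8.78 and 6.72 in HFD+Mino. The HFD ratios were above all others, and the Control and HFD+Mino ratios overlapped. The ratio was 11.01-fold higher in HFD than in Control and 9.32-fold lower in HFD+Mino than in HFD (exact permutation test, two-sided, p = 0.1 for each), and 0.1 is the smallest p that 3 against 3 mice allow. HFD+Mino against Control gave p = 0.3 in the same exact permutation test. A ratio within a sample shows that the genes differed unequally and does not depend on how the libraries were scaled.

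**Figure D2:**
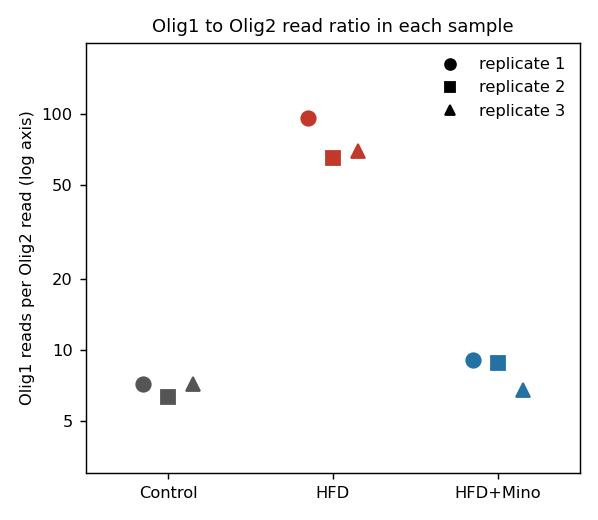
Counts of Olig1 per count of Olig2 in each PVN sample (y axis, log scale), 3 mice per group. The HFD samples lie at 64.7 to 95.5 and the other 6 samples at 6.31 to 9.02.

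The sequences of these genes differ in composition. For each gene the stretch of 100 nt with the highest share of G and C was located in its longest transcript. Olig2 reached 87%, which is above 95.5% of the 15626 tested genes with an annotated transcript, whereas Olig1 and Sox10 reached 81%, Ptprz1 75%, Pdgfra, Cspg4 and Bcas1 71%, Gpr17 and Neu4 69%, and Vcan 68%, with a median of 72% over all these genes. The GC-richest 100 nt of the coding sequence of Olig2, Olig1, Sox10 and Cspg4 are shown because the first pair are neighbours with unlike counts, Sox10 is a GC-rich gene that was not called, and Cspg4 is the member that rose. They were read from GENCODE M21 transcript sequences in the direction of the gene, with positions on GRCm38 and each CG dinucleotide in capitals. The Olig2 stretch (chr16:91227004-91227103, plus strand, exon 2 of 2) holds 21 CG dinucleotides and the Olig1 stretch (chr16:91270340-91270439, plus strand, its single exon) holds 17. The Sox10 stretch (chr15:79163573-79163672, minus strand, exon 3 of 5) holds 14 and the Cspg4 stretch (chr9:56886287-56886386, plus strand, exon 3 of 10) holds 5.
Olig2: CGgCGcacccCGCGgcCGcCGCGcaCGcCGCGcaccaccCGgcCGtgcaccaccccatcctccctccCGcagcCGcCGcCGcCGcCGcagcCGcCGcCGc
Olig1: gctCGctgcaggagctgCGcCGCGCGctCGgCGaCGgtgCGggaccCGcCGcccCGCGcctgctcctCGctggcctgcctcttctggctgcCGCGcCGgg
Sox10: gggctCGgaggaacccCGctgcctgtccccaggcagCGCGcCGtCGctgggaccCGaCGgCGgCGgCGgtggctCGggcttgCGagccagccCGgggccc
Cspg4: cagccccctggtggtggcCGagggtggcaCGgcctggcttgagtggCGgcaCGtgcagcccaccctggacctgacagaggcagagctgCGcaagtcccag

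Across all tested genes with an annotated transcript, the 1301 genes with at least 85% G and C in their richest 100 nt had a median log2 fold change of -0.49 in HFD against Control, and 12.8% of them were called lower. Olig2 lies in this class. With a smooth trend on this measure removed from each sample, Olig2 still fell in HFD against Control, by 2.87 on the log2 scale (edgeR FDR 0.00438). The part of base composition in its level was not tested further.

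Length moved with the same comparisons. The 2712 tested genes with at least 8000 nt of exon had a median log2 fold change of 0.42 in HFD against Control and of -0.58 in HFD+Mino against HFD. Pdgfra (10024 nt), Cspg4 (11931 nt), Ptprz1 (14245 nt) and Vcan (14462 nt) are in this class, while Gpr17 has 5195 nt and Olig2 2530 nt. With a smooth trend on length removed, Cspg4 was no longer called, at a log2 fold change of 1.17 in HFD against Control (edgeR FDR 0.0121) and -1.10 in HFD+Mino against HFD (edgeR FDR 0.0133). Ptprz1 then had a log2 fold change of 0.43 in HFD against Control (edgeR FDR 0.188) and of -0.67 in HFD+Mino against HFD (edgeR FDR 0.0265), and was not called either. Gpr17, by contrast, was called in both under the same setting, at 1.55 (edgeR FDR 0.00498) and -1.92 (edgeR FDR 0.00211), and Olig2 was called in HFD against Control at -3.10 (edgeR FDR 0.00376).

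**Figure D3:**
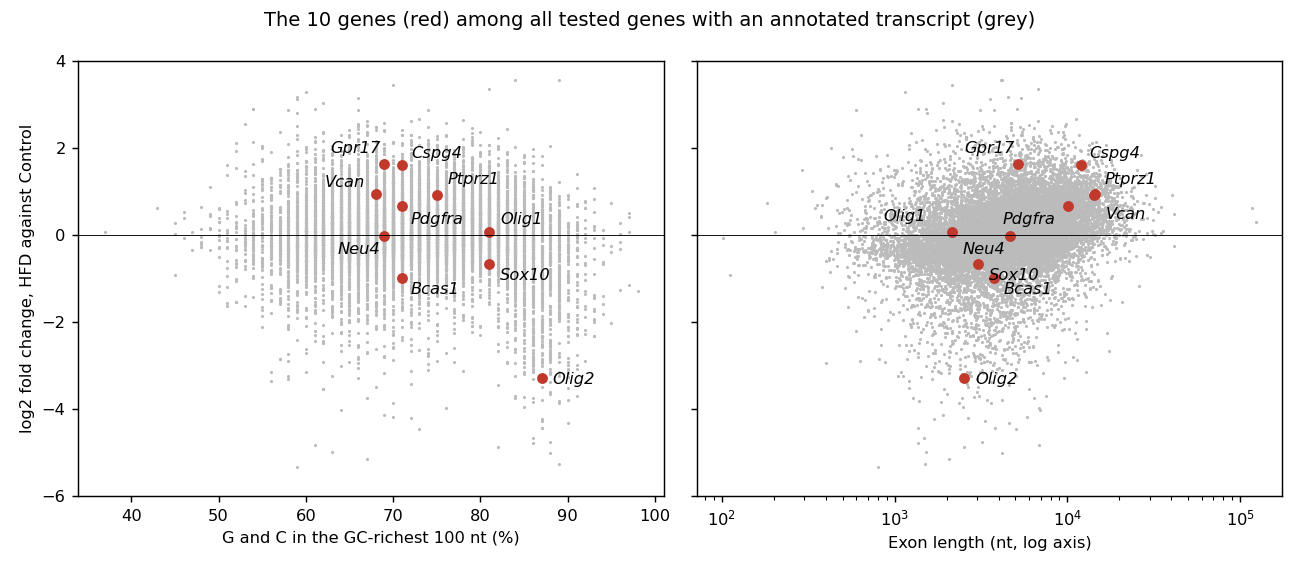
Log2 fold change of HFD against Control (y axis) for all tested genes with an annotated transcript (grey, 15626 genes) and for the 10 lineage genes (red), against the share of G and C in the GC-richest 100 nt (left) and exon length in nt on a log axis (right). Olig2, at 87%, lies among the GC-rich genes with negative values, and Cspg4, Ptprz1, Vcan and Pdgfra lie at the long end, all above 0.

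Sox10 (Entrez 20665, chr15:79154913-79164490, minus strand), the factor that switches on myelin genes, measured 59.0, 21.8 and 19.8 CPM in Control, 18.0, 26.6 and 19.3 CPM in HFD, and 11.2, 8.54 and 19.4 CPM in HFD+Mino. Control replicate 1 was the highest by far, and the HFD mice overlapped with both other groups. The log2 fold change of HFD against Control was -0.65 (SE 0.44, edgeR FDR 0.428), and without Control replicate 1 it was 0.03. HFD+Mino against HFD gave -0.71 (SE 0.44, edgeR FDR 0.246).

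Bcas1 (Entrez 76960, chr2:170343973-170427911, minus strand), which marks early myelinating cells and persists in myelin, measured 425, 96.6 and 55.4 CPM in Control, 52.7, 135 and 103 CPM in HFD, and 39.9, 38.9 and 78.0 CPM in HFD+Mino. The value of Control replicate 1 stood beside that sample's high myelin genes, with Mbp, the myelin basic protein, at 17996 CPM there against 1182 to 4359 CPM in the other 8 samples. The log2 fold change of HFD against Control was -0.99 (SE 0.64, edgeR FDR 0.416) and turned to 0.35 without that sample, and HFD+Mino against HFD gave -0.89 (SE 0.64, edgeR FDR 0.318). Its exons overlap by 440 and 34 nt with a pair of antisense genes, Bcas1os1 and Bcas1os2.

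Neu4 (Entrez 241159, chr1:94020493-94028334, plus strand) encodes a sialidase, an enzyme that removes sialic acid, and is enriched in precursors. It measured 24.6, 18.6 and 17.4 CPM in Control, 18.1, 21.0 and 20.7 CPM in HFD, and 19.7, 8.47 and 25.6 CPM in HFD+Mino. The groups overlapped throughout, with log2 fold changes of -0.02 (SE 0.35) in HFD against Control and -0.15 (SE 0.35) in HFD+Mino against HFD (edgeR FDR 0.984 and 0.774).

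Counted over the 10 genes, HFD against Control gave 1 rise, Cspg4, and 1 fall, Olig2, where 0.317% of all tested genes were called higher and 1.42% lower. HFD+Mino against HFD gave 0 rises and 3 falls, Cspg4, Gpr17 and Ptprz1, where 1.98% of all tested genes were called higher and 2.16% lower. The median log2 fold change of the 10 genes was 0.38 in HFD against Control, with 0.00 over all genes, and -0.96 in HFD+Mino against HFD, with 0.01 over all genes. In HFD against Control 6 of the 10 were positive and 4 negative, and without Control replicate 1 only 1, Olig2, was negative. In HFD+Mino against HFD 9 were negative and 1, again Olig2, was positive. These comparisons share the 3 HFD samples, so their values are not independent of each other.

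A 3-way test asked whether any of the 3 groups differed, and calls were counted where HFD was the highest or lowest group and differed 1.5-fold or more from the average of the group means. Cspg4 (log2 distance 1.11, edgeR FDR 0.00323), Gpr17 (1.29, edgeR FDR 0.00360) and Ptprz1 (0.74, edgeR FDR 0.00704) were called higher in HFD, against 0.917% of all tested genes. Olig2 (-1.83, edgeR FDR 0.00785) was called lower, against 1.21% of all tested genes. The same genes were those whose HFD mice did not overlap with the other 6, with 3 of 10 above them and 1 of 10 below them, where 13.4% and 9.62% of all tested genes were so placed.

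HFD+Mino against Control gave 0 calls among the 10 genes and 0 among all 17344 genes with edgeR's quasi-likelihood test (0% called). At an unadjusted p under 0.05, 4 of 10 genes differed, against 21.3% of all tested genes, or 3698 genes. These 4 were Olig1, Olig2, Sox10 and Bcas1, all lower in HFD+Mino, with log2 fold changes of -0.95, -1.10, -1.36 and -1.88 (edgeR FDR 0.184, 0.201, 0.144 and 0.157). These values leaned on Control replicate 1, without which they were -0.48, -0.69, -0.68 and -0.54. An unadjusted p below 0.05 was then left for 1 of the 10 genes, against 20% of all tested genes in that fit. The count over all genes also depended on the fit. DESeq2 called 271 genes, edgeR's likelihood ratio test 106, the quasi-likelihood test 551 with same-numbered Control and HFD+Mino samples as pairs and 1120 without HFD+Mino replicate 3, but each called 0 of the 10 genes. Of the others, Pdgfra had a log2 fold change of -0.41, Cspg4 of -0.10, Gpr17 of -0.61, Ptprz1 of -0.37, Vcan of 0.13 and Neu4 of -0.17, and a difference that misses the threshold does not show that the levels were equal.

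**Figure D4:**
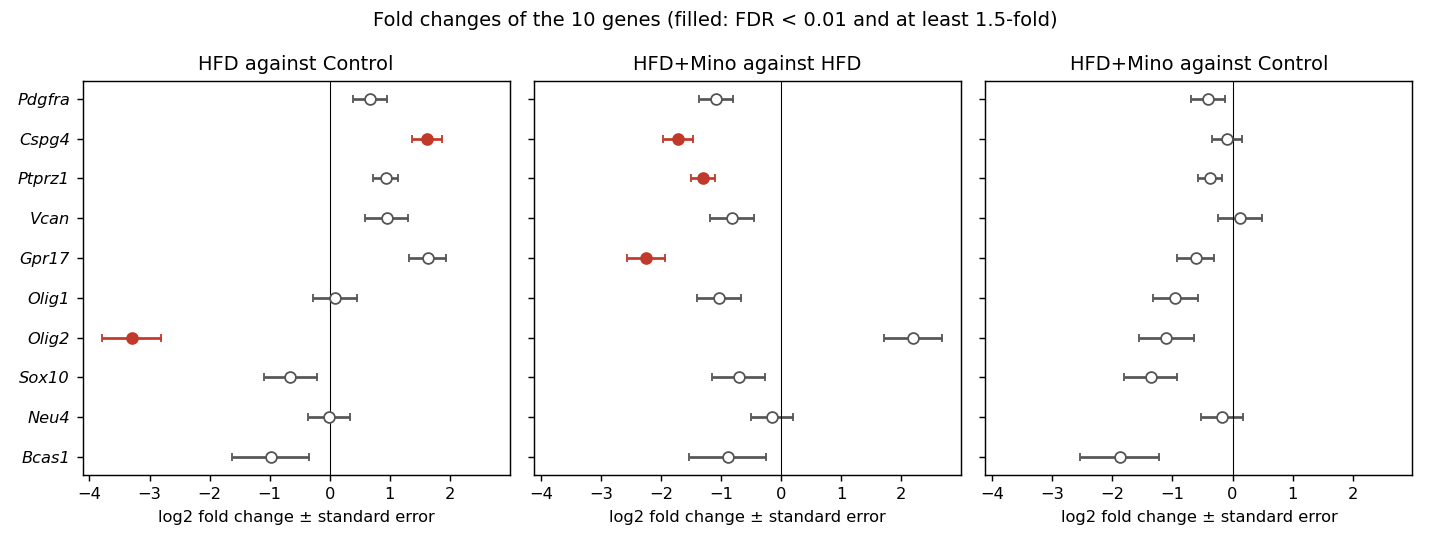
Log2 fold change with its standard error (x axes) for the 10 genes in HFD against Control, HFD+Mino against HFD and HFD+Mino against Control, from 1 edgeR fit to 9 samples. Filled red points were called (FDR under 0.01 and at least 1.5-fold), namely Cspg4 and Olig2 on the left and Cspg4, Gpr17 and Ptprz1 in the middle, with no call on the right.

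The calls depended on single samples, over all tested genes as well as among the 10. Leaving out any HFD sample or Control replicate 2 left 0 of the 10 genes called in HFD against Control, leaving out Control replicate 1 left 1, Olig2, and leaving out Control replicate 3 gave 3. Over all tested genes the shares called were then 0.335% to 0.509%, 1.01% and 1.63%, against 1.74% with all samples. In HFD+Mino against HFD, 0 were called without any 1 HFD sample or without HFD+Mino replicate 1, and 2 without HFD+Mino replicate 2 or Control replicate 2. The fits with 0 called 0.162% to 0.59% of all tested genes, and the others 1.89% and 0.828%, against 4.15% with all samples. The fold changes of the 4 genes kept their direction in every such fit of HFD against Control and of HFD+Mino against HFD. Olig2 in HFD against Control ranged from -3.57 to -2.88 on the log2 scale, Cspg4 from 1.504 to 1.72, Gpr17 from 1.42 to 2.03 and Ptprz1 from 0.84 to 1.05. When same-numbered Control and HFD+Mino samples, which deviated together, were treated as pairs (a replicate block for these groups), 4 of the 10 genes were called in HFD against Control, with 6.22% of all genes, and 5 in HFD+Mino against HFD, with 25.6% of all genes.

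The order of the genes per length of transcript was compared within each group, as CPM per kb of exon. In Control it ran from Olig1 (mean 86.9), Bcas1 (51.0), Sox10 (10.99), Olig2 (10.7) and Ptprz1 (7.73) through Neu4 (4.36), Gpr17 (3.26) and Pdgfra (2.98) to Cspg4 (0.577) and Vcan (0.248). Without Control replicate 1 the mean of Bcas1 was 20.1, and Ptprz1 (8.12) then stood above Olig2 (8.02) and Sox10 (6.81). Ranges over the Control mice overlapped between neighbours in this order, except that Ptprz1 lay above Neu4, Pdgfra above Cspg4 and Cspg4 above Vcan. Within each Control mouse Olig1 also lay above Bcas1, Bcas1 above Sox10 and Gpr17 above Pdgfra. In HFD Olig2 had a mean of 1.08 CPM per kb and stood just above Vcan (0.478) and below Cspg4 (1.77), without overlap with either. Gpr17, at 10.1 CPM per kb in HFD, stood above Sox10 (6.98) there, again without overlap. In HFD+Mino Olig2 (4.99) was between Ptprz1 (5.99) and Sox10 (4.27) and overlapped with both.

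Other genes of the lineage were counted by list. Beside the counts below, 0.317% of all tested genes were called higher and 1.42% lower in HFD against Control. In HFD+Mino against HFD these shares were 1.98% and 2.16%. Among 20 further precursor genes 1 rose and 1 fell in HFD against Control (median log2 fold change 0.15). C1ql1, which encodes a secreted protein of the C1q family, measured 25.2, 17.4 and 14.7 CPM in Control, 1.00, 0.812 and 0.473 CPM in HFD, and 10.2, 5.27 and 18.2 CPM in HFD+Mino. It fell by 4.67 on the log2 scale in HFD against Control (edgeR FDR 0.000602) and rose by 3.90 in HFD+Mino against HFD (edgeR FDR 0.00186), with every HFD mouse below all others. Sema5a, a semaphorin that guides axons, rose in HFD from 20.01 ± 2.89 to 57.7 ± 6.69 CPM (SD, n = 3, edgeR FDR 0.00537). Its level in HFD+Mino was 30.9 ± 8.58 CPM (SD, n = 3), which did not pass the threshold against HFD (edgeR FDR 0.0230). The uncalled precursor genes ranged from Cacng4 at a log2 fold change of -2.48 to Tnr at 1.25 in HFD against Control, with Lhfpl3 at 0.19 and Pcdh15 at -0.11. Of the 20 genes, 11 were positive and 9 negative. An unadjusted p under 0.05 (edgeR) was found for 10 of the 20, against 20.5% of all tested genes. In HFD+Mino against HFD 1 of the 20 genes rose, C1ql1, and 0 fell (median -0.23).

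Of 18 genes of committed precursors and premyelinating cells, 0 rose and 2 fell in HFD against Control (median log2 fold change -0.42). Fyn, a kinase that acts in the start of myelination, measured 162 ± 23.2 CPM in Control, 38.6 ± 9.84 CPM in HFD and 131 ± 56.8 CPM in HFD+Mino (SD, n = 3). Tmem163, a zinc transporter, measured 63.1 ± 31.8, 9.996 ± 3.90 and 52.0 ± 26.0 CPM in the same order (SD, n = 3). Both fell in HFD against Control and rose in HFD+Mino against HFD, where Nfasc, a cell adhesion molecule of the node of Ranvier, fell by 1.24 on the log2 scale (edgeR FDR 0.00950).

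None of 20 genes of mature oligodendrocytes and myelin was called in any comparison. All 20 had negative log2 fold changes in HFD against Control (median -1.66) and in HFD+Mino against Control (median -1.82), and 11 and 16 of them had an unadjusted p under 0.05, as did 20.5% and 21.3% of all tested genes. Without Control replicate 1 the medians were -0.36 and -0.43, with 13 and 15 of the 20 genes negative. An unadjusted p under 0.05 was then left for 2 of the 20 in each comparison, against 13.6% and 20% of all tested genes. The summed level was 4520 to 35499 CPM in Control, of which Control replicate 1 was the highest, 3125 to 7935 CPM in HFD and 2891 to 6931 CPM in HFD+Mino. Outside Control replicate 1 the 3 groups overlapped. Mog, a protein of the outer myelin surface, measured 440, 75.6 and 36.7 CPM in Control and 20.9, 55.5 and 39.3 CPM in HFD.

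The partners of the precursor receptors were compared in the same way. Among 5 genes for PDGF ligands and the second receptor, 0 were called in HFD against Control and 1 fell in HFD+Mino against HFD. Pdgfa, which encodes the ligand of Pdgfra, measured 52.6, 50.1 and 45.3 CPM in Control, 29.6, 40.4 and 34.4 CPM in HFD, and 82.2, 46.6 and 61.0 CPM in HFD+Mino. Its HFD mice lay below all others, opposite to Cspg4 and Gpr17, but its log2 fold changes of -0.50 and 0.86 were not called (edgeR FDR 0.271 and 0.0261). Pdgfrb, the other PDGF receptor and a pericyte gene, fell in HFD+Mino against HFD from 18.9 ± 1.24 to 6.33 ± 1.37 CPM (SD, n = 3, edgeR FDR 0.00950).

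Among 8 ligands of PTPRZ1 and genes of the brain matrix, 0 were called in HFD against Control and 2 fell in HFD+Mino against HFD. Cntn1, the adhesion molecule contactin, which binds PTPRZ1, measured 263 ± 42.5 CPM in Control, 499.6 ± 55.8 CPM in HFD and 153 ± 24.6 CPM in HFD+Mino (SD, n = 3). Ncan, the brain proteoglycan neurocan, measured 32.6 ± 1.96, 79.4 ± 9.46 and 28.6 ± 9.86 CPM in the same order (SD, n = 3). Their falls with minocycline were 1.70 and 1.47 on the log2 scale (edgeR FDR 0.00198 and 0.00636).

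Among 18 regulators of lineage progression, 1 rose and 1 fell in HFD against Control, and 1 rose and 2 fell in HFD+Mino against HFD. Sox9, a factor of glial precursors and astrocytes, measured 32.1, 37.1 and 44.7 CPM in Control, 100.4, 107 and 105 CPM in HFD, and 22.2, 32.8 and 34.3 CPM in HFD+Mino. It rose by 1.46 and then fell by 1.81 on the log2 scale (edgeR FDR 0.00470 and 0.00184). Id4, an inhibitor of basic helix-loop-helix factors such as OLIG1 and OLIG2, measured 79.6, 139 and 158 CPM in Control, 18.9, 18.4 and 23.5 CPM in HFD, and 85.7, 109 and 224 CPM in HFD+Mino. It fell by 2.63 and then rose by 2.78 (edgeR FDR 0.00305 and 0.00257), and thus had the order of groups seen in Olig2. Sox8, a relative of Sox10, fell in HFD+Mino against HFD from 43.4 ± 5.46 to 12.9 ± 3.62 CPM (SD, n = 3, edgeR FDR 0.00557).

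Genes of cell division were low. Of 8 such genes 7 were tested and 0 were called. The summed level was 4.77 to 6.13 CPM in Control, 2.94 to 10.3 CPM in HFD and 6.23 to 13.1 CPM in HFD+Mino. Control and HFD+Mino were only just apart, at 6.13 against 6.23 CPM. Mki67, a marker of dividing cells, measured at most 1.00 CPM in any sample.

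**Figure D5:**
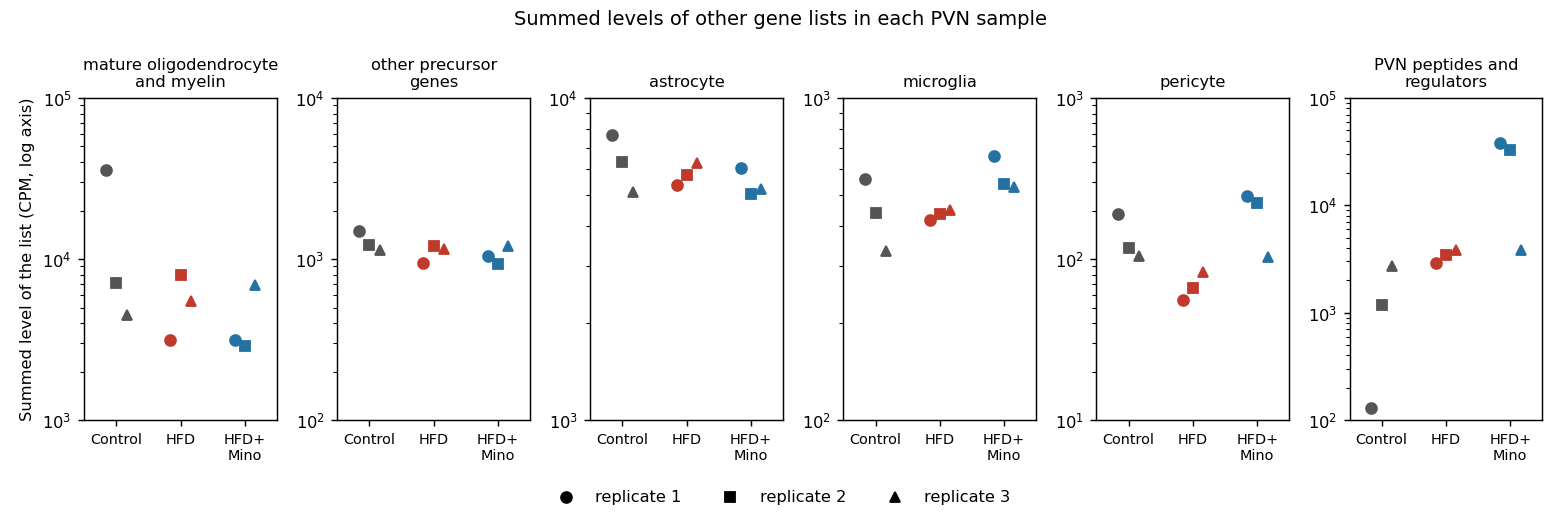
Summed level of 6 gene lists in CPM (y axes, log scale) in each PVN sample, with 3 mice per group and symbols for replicate numbers. Control replicate 1 has the highest myelin sum and the lowest sum of PVN genes, HFD+Mino replicates 1 and 2 have the highest PVN sums, and the pericyte sum is lowest in the 3 HFD samples.

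Markers of other cells in the punch were read beside these results. The summed microglial level (10 genes) was 335 to 561 CPM in Control, 418 to 448 CPM in HFD and 528 to 663 CPM in HFD+Mino, with 0 of 10 called. The endothelial level (7 genes) was 182 to 338, 172 to 216 and 170 to 426 CPM, with 0 of 7 called in HFD against Control and 1, Kdr, lower in HFD+Mino against HFD. The level of fibroblast-like and leptomeningeal genes (7 genes) was 24.3 to 56.0, 26.2 to 33.0 and 27.3 to 61.2 CPM, and that of neuronal genes (9 genes) was 5516 to 8212, 4436 to 6559 and 4393 to 4519 CPM, with 0 called in either list. The part of these cells in the levels of the 10 genes was not tested.

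Finally, the genes whose levels ran most like a member over the 9 samples were sought among all tested genes, by Pearson's r of log2(CPM + 0.5), given as a description. For Pdgfra these were Dscaml1 (r = 0.987), Ammecr1l (0.987) and Slc9a8 (0.986), all with their highest group mean in HFD. For Olig2 they were Clec2l (r = 0.991), Mcur1 (0.990) and Ankrd13a (0.981). Clec2l measured 138, 75.7 and 63.6 CPM in Control, 7.53, 10.5 and 10.7 CPM in HFD, and 43.7, 22.0 and 63.8 CPM in HFD+Mino, following Olig2 in the order of groups and of most single mice. All points share the same 9 libraries, so such likeness can come from anything that differs between libraries.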

How the data were processed

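Per the labels and the study's methods, the authors prepared libraries with a low-input cDNA kit and transposase fragmentation, aligned reads to mm10 with HISAT2 and counted them per gene with featureCounts, and they deposited unnormalised counts. Strand and multiple-position settings are not given in the sources used here. The test was that of edgeR 4.0.16 under R 4.3.3 (filterByExpr, TMM, quasi-likelihood, group as the only term, 9 samples in 1 fit). Calls needed an FDR under 0.01 and 1.5-fold. The ratio used an exact permutation test (scipy 1.17.1). The code was tested on simulated data.

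The 10 genes and the other lists were chosen with earlier results of these data known. Named genes were the members, up to 3 called genes per lineage list and direction, and the 3 genes most like Pdgfra and Olig2. Pdgfa, Mbp, Mog, Mki67, Lhfpl3, Pcdh15, Cacng4, Tnr, Avp, Oxt, Crh, Trh, Rgs5, Higd1b, Vtn, Notch3, Aldoc, Kdr and Lims2 fall outside this rule, chosen with their values known.

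Gene positions came from RefSeq GRCm38.p6 and transcripts from GENCODE M21. Reads carry no molecular identifiers, so errors come from the spread between mice. Replicates differed by more than counting error (chi-square divided by its degrees of freedom, 21.0 to 316). The HFD columns are numbered from 3 to 5 in the table and from 1 to 3 in the titles, which are used here. Same-numbered Control and HFD+Mino samples deviated together (correlations 0.121, 0.144 and 0.264), a pairing seen in the counts alone. Same-numbered pairs with HFD gave -0.149 to -0.005. Pairs with HFD of unlike number reached 0.163 (Control replicate 2 with HFD replicate 1), so correlations of this size were not limited to Control and HFD+Mino.

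Alternatives were DESeq2 1.42.0, RLE size factors, the likelihood ratio test, no filter, a mean count of at least 50, ribosomal and mitochondrial genes left out, an FDR under 0.05, no fold threshold, the replicate block, trends on length, GC content or the GC-richest 100 nt removed, fits of 6 samples, and each sample left out. The block in Control and HFD+Mino alone was added after seeing the data.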

Additional observations from a re-analysis of the deposited data

How the results depend on the processing

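Of the 10 genes, 4 were called in the 3-way test, 2 in HFD against Control and 3 in HFD+Mino against HFD. Removing the length trend left 2 in the 3-way test and 1 in HFD+Mino against HFD. Of all tested genes 2.14% and 2.68% were then called, against 2.13% and 4.15%. DESeq2, the likelihood ratio test, an FDR under 0.05 and the added block in Control and HFD+Mino alone each gave 4 in HFD against Control and 5 in HFD+Mino against HFD, but over all genes they also called 5.57% to 6.84% and 19.1% to 27.4%, against 1.74% and 4.15%. Leaving out each sample in turn gave 0 to 4 in the 3-way test, 0 to 3 in HFD against Control and 0 to 4 in HFD+Mino against HFD. Over all tested genes the shares called then ran from 0.0168% to 13.4%, 0.335% to 3.08% and 0.162% to 21.4% in the same order. HFD+Mino against Control gave 0 under every alternative run.

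With the replicate block in all groups, 3 genes were called in each of the 3-way test, HFD against Control and HFD+Mino against HFD. Of all tested genes 2.81%, 1.64% and 7.9% were called in the same order. Olig2 left the 3-way calls (edgeR FDR 0.0114) while Gpr17 passed in HFD against Control (edgeR FDR 0.00895). The block changed no other call of the 10 genes in these pairs.

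Log2 fold changes that turned direction were all uncalled. In HFD against Control, Olig1 was -0.11 with the trend on the GC-richest 100 nt removed and ranged from -0.11 to 0.55 with 1 sample left out. Such ranges were -0.92 to 0.0330 for Sox10, -0.11 to 0.14 for Neu4 and -1.42 to 0.35 for Bcas1. In HFD+Mino against HFD, Neu4 was 0.0767 with the length trend removed and ranged from -0.50 to 0.19. In HFD+Mino against Control, Cspg4 was 0.0706 and 0.103 with the length and GC trends removed and ranged from -0.21 to 0.0108, with ranges of -0.13 to 0.29 for Vcan and -0.53 to 0.16 for Neu4. The cause was not tested.

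Over all genes, calls in the 3-way test numbered 369, against 2342 with DESeq2 and 3 without HFD replicate 3. HFD against Control gave 302 calls against 1186 with DESeq2 and 59 without HFD replicate 1, and HFD+Mino against HFD gave 719 against 4442 with the added block and 29 without HFD replicate 3. With 3 mice per group, differences under the threshold do not show equal levels.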
